A study of Drosophila melanogaster with 42 samples.

Results

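Open chromatin was compared between zld- fruit fly embryos aged 2.5 to 3 h after egg laying (3 libraries) and zld- embryos aged 1.5 to 2 h (3 libraries), as measured by ATAC-seq, in which the transposase Tn5 inserts sequencing adapters into accessible DNA. These 6 libraries are part of a series of 42 libraries in 14 groups of genotype and age. Loci were formed from the 6 lists of peaks by joining peaks that overlapped by at least 1 bp, which gave 67762 loci with a median width of 560 bp; positions are in build dm6. A locus was counted as gained when all 3 lists at 2.5-3 h and none of the 3 lists at 1.5-2 h held a peak there, and as lost in the opposite case. By this rule 923 loci were gained and 1732 were lost, and 23480 had a peak in all 6 lists and are called shared. Each library was made from pooled embryos, 40 per library at 2.5-3 h and 100 per library at 1.5-2 h, so age and number of embryos cannot be told apart. The zld- libraries at 2-2.5 h (3 libraries of 40 embryos) and those of the wild-type stock OreR at 2.5-3 h and 2-2.5 h (40 embryos each) and at 1.5-2 h (100 embryos), again 3 per window, served to follow the same loci in libraries that the choice of loci did not use. The labels give the genotype as zld- and do not say how the embryos were obtained; the deposited file names refer to RNAi. Some Zelda protein may remain, and its level was not measured here. Nothing in the labels says that replicates of a group came from separate cages, so that p-values measure the spread between these libraries.

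Zelda, encoded by zld, is a maternally supplied zinc finger protein that binds DNA in the early nuclei, opens chromatin and is needed for much of the first wave of zygotic transcription. The windows compared span the last syncytial divisions, cellularization and the onset of gastrulation, when the embryo passes from maternal to zygotic control. Other factors can also act on closed or partly closed chromatin in these stages, among them the GAGA factor encoded by Trl, CLAMP, and Odd-paired, the product of the pair-rule gene opa. Promoters of broadly expressed genes and enhancers of patterning genes are the main classes of open region in such embryos.

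The lists were of similar length in both windows. They held 54651, 45967 and 41524 peaks at 2.5-3 h and 55620, 55699 and 37303 peaks at 1.5-2 h, a difference of means of -2160 (two-sided exact permutation test, p = 0.8; 3 libraries against 3 cannot give less than 0.1). Median peak width (491 ± 17.1 bp at 2.5-3 h and 464 ± 28.8 bp at 1.5-2 h, SD, exact p = 0.3), covered length (30.3 ± 4.11 and 30.2 ± 5.48 Mb in the same order, exact p = 1) and median fold enrichment (a difference of 0.033, exact p = 0.9) also overlapped between the windows. The 1.5-2 h libraries were not alike, however. Over the shared loci, replicate 1 at 1.5-2 h had Spearman correlations of fold enrichment of 0.84, 0.80 and 0.82 with the 3 libraries at 2.5-3 h, and of 0.84 and 0.70 with the other libraries of its own window. Replicates 2 and 3 at 1.5-2 h had correlations of 0.50 to 0.72 with the 2.5-3 h libraries, and the 3 libraries at 2.5-3 h correlated with each other at 0.86 to 0.92. Set against the mean ranks of OreR windows over 17671 loci, replicate 1 at 1.5-2 h was most like OreR at 2-2.5 h (rho 0.826), while replicates 2 and 3 were most like OreR at 1.5-2 h (rho 0.851 and 0.775). These correlations are across loci of the same genome and are descriptive. Results are therefore given with and without replicate 1 at 1.5-2 h, and whether that library differs in age or in preparation was not tested.

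**Figure D1:**
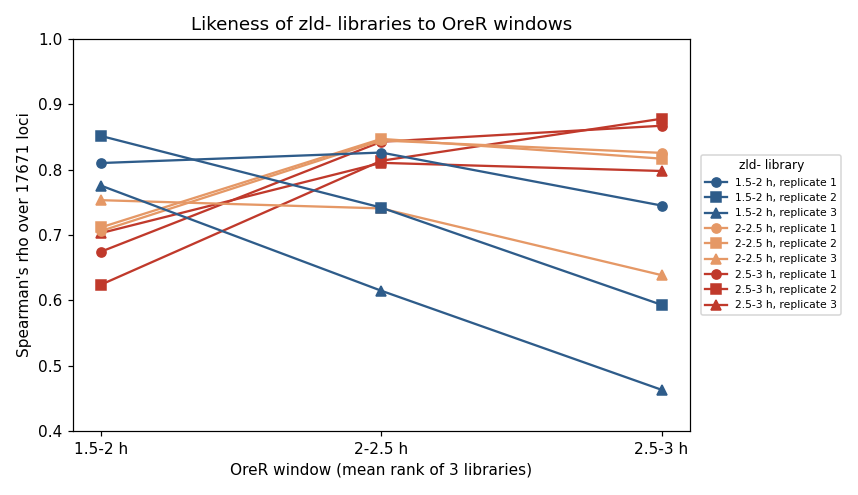
Spearman's rho between the fold enrichment of each zld- library and the mean rank of the 3 OreR libraries of a window, over 17671 loci with a peak in all 18 libraries; the x axis gives the OreR window, colour the zld- window and marker shape the replicate. Replicates 1 and 2 at 2.5-3 h were most like OreR at 2.5-3 h (0.867 and 0.878), replicate 3 of that window had 0.810 with OreR at 2-2.5 h and 0.798 at 2.5-3 h, and replicate 1 at 1.5-2 h had 0.810, 0.826 and 0.745 with the OreR windows from early to late.

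Gained loci made up 1.36% and lost loci 2.56% of all loci. The neighbouring classes were larger. A peak in 3 lists at 2.5-3 h and in 1 at 1.5-2 h was found at 2194 loci, and a peak in 2 lists at 2.5-3 h and in none at 1.5-2 h at 2308. In the other direction, 2212 had a peak in 1 list at 2.5-3 h and in 3 at 1.5-2 h, and 3156 had a peak in none at 2.5-3 h and in 2 at 1.5-2 h. Without replicate 1 at 1.5-2 h, 2556 loci were gained (3.77%) and 2611 were lost (3.85%). Gained and lost loci were weak peaks: the median fold enrichment was 1.97 at gained loci in the 2.5-3 h lists and 1.89 at lost loci in the 1.5-2 h lists, against 2.53 and 2.50 at shared loci in the later and the earlier lists. The number of reads per library is not part of the lists, so the depth is unknown, and a missing peak does not show closed chromatin. Whole embryos were pooled, so a region open in fewer nuclei cannot be told apart from a region less open in all of them.

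The 12 gained loci whose lowest rank over the 3 later lists was highest are described first, and their high values at 2.5-3 h follow from that choice. A peak in CG34353, 9662 bp from the odorant receptor gene Or98a (3R:27856922-27857940), had fold enrichments of 4.37, 4.40 and 4.34 at 2.5-3 h and no peak at 1.5-2 h; these values stood above those of at least 90.3% of the loci in each later list. At CG14186 (3L:20097167-20097752, 332 bp from the gene) the values were 3.76, 3.90 and 3.76 at 2.5-3 h, with no peak at 1.5-2 h. Both loci also had peaks in all 3 OreR libraries at 2.5-3 h and in none at 1.5-2 h. Within htt, the fly homologue of the Huntington's disease gene (3R:28696132-28696822), the values at 2.5-3 h were 3.17, 2.90 and 2.81. Within mew, which encodes an integrin alpha subunit (X:13222026-13222462), they were 2.75, 2.91 and 2.76. At sov, which encodes a zinc finger protein of the germ line and heterochromatin (X:6770574-6771251), they were 2.43, 2.80 and 2.92, with peaks in all 3 OreR libraries at 2.5-3 h and in none at 1.5-2 h. The other 7 of the 12 highest-ranking gained loci were nearest to CG15198, CG15247, CG43271, CG3347, CG34337, betaNACtes3 and Pde9, the last a phosphodiesterase gene. The locus nearest to CG3347 had unequal values, 5.01, 4.78 and 2.73 at 2.5-3 h. Of the 7, CG15198 and Pde9 differed from the rest in having a peak in all OreR libraries of both windows.

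The 12 lost loci chosen in the same way ranked less high. Their lowest percentile over the 3 earlier lists was 61.5 to 77.1, against 65.6 to 90.3 over the later lists at the 12 gained loci. Within DIP-kappa, whose product is an immunoglobulin-domain cell surface protein (2L:13678436-13679055), fold enrichment was 2.68, 2.56 and 2.61 at 1.5-2 h, with no peak at 2.5-3 h. Near dpr2, of the family of partners of such proteins (2L:10916283-10916749), the values at 1.5-2 h were 2.38, 3.24 and 3.32. Within CngA, which encodes a cyclic nucleotide-gated channel subunit (2R:16254424-16254907), they were 2.42, 2.85 and 3.61. All 3 loci had peaks in every OreR library at 1.5-2 h, and 0, 2 and 1 OreR libraries at 2.5-3 h held a peak at DIP-kappa, dpr2 and CngA in that order. Near blanks, which encodes a double-stranded RNA binding protein of the testis (3L:5495818-5496134), the values at 1.5-2 h were 2.34, 2.45 and 2.60, and no zld- library at 2-2.5 h held a peak there. The remaining members were nearest to CG12290, ms(3)76Ba, CG17105, CG6106, CG15136, CG12310, CG7564 and CG40470. CG12310 (3L:15050428-15050917; 2.36, 2.45 and 2.62 at 1.5-2 h) stood apart in that no OreR library of either window held a peak there.

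In libraries that were not used to choose them, gained and lost loci followed the windows. Gained loci held a peak in 80.6%, 74.3% and 82.1% of cases in the OreR libraries at 2.5-3 h, and in 31.5%, 18.7% and 25.6% in the OreR libraries at 1.5-2 h. The OreR windows did not overlap, and the difference of means was 53.7 percentage points (79.0 ± 4.14% and 25.3 ± 6.40%, SD, n = 3 each; two-sided exact permutation test, p = 0.1, the smallest that 3 against 3 allow). Lost loci held a peak in 8.89%, 10.2% and 21.1% of cases in the OreR libraries at 2.5-3 h, and in 83.6%, 81.5% and 90.6% in those at 1.5-2 h, a difference of -71.8 percentage points (exact p = 0.1, again the smallest possible). Over all 67762 loci these shares averaged 62.5% at 2.5-3 h and 71.1% at 1.5-2 h in OreR, which differ by -8.57 points (p = 0.2 in the exact permutation test). The zld- libraries at 2-2.5 h were less uniform: 68.3%, 63.7% and 23.2% of the gained loci and 31.7%, 30.5% and 36.7% of the lost loci held a peak, against 66.3%, 65.5% and 51.2% of all loci. Replicate 3 of that window, the shortest list with 38473 peaks, held the fewest gained and the most lost loci. It was also more like OreR at 1.5-2 h (rho 0.753) than at 2-2.5 h (0.741) or 2.5-3 h (0.638), and the part of age or preparation in this was not tested. Without replicate 1 at 1.5-2 h, the gained loci held a peak in 84.4 ± 3.18% of cases in OreR at 2.5-3 h and in 37.3 ± 8.44% at 1.5-2 h. The lost loci did in 12.8 ± 5.97% at 2.5-3 h and 78.8 ± 6.28% at 1.5-2 h (SD, n = 3 each).

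**Figure D2:**
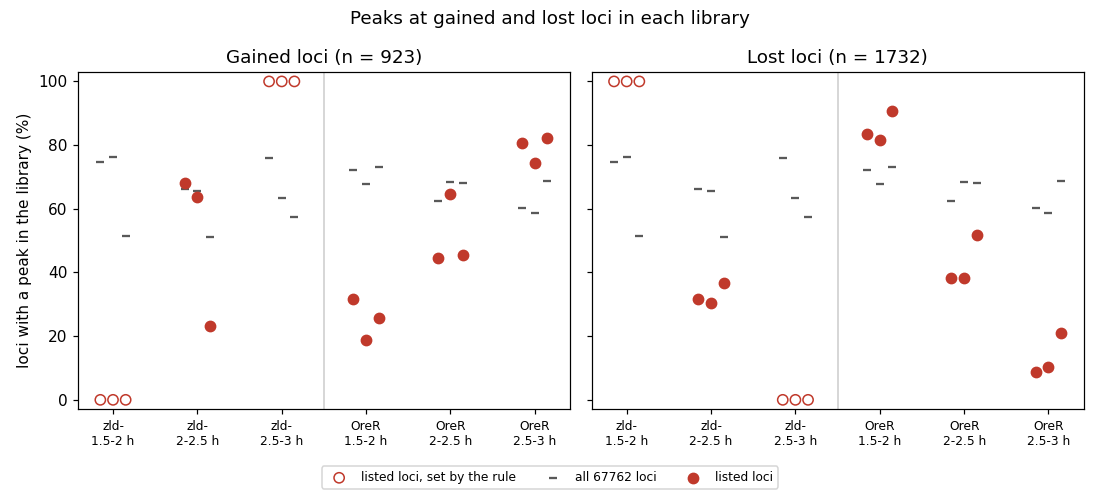
Share of the 923 gained (left) and 1732 lost (right) loci with a peak in each of 18 libraries, by genotype and window; open circles are the values that the choice of loci fixes at 0 or 100%, filled circles are libraries it did not use, and dashes give the share of all 67762 loci. In OreR, 74.3% to 82.1% of the gained loci held a peak at 2.5-3 h and 18.7% to 31.5% at 1.5-2 h; of the lost loci, 8.89% to 21.1% did at 2.5-3 h and 81.5% to 90.6% at 1.5-2 h.

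When the same rule was applied to OreR over all 67762 loci, 2166 were gained and 4595 were lost. Of the 923 loci gained in zld-, 303 were gained in OreR too, 32.8% of the zld- and 14.0% of the OreR loci. Of the 1732 loci lost in zld-, 850 were lost in OreR, 49.1% of the zld- and 18.5% of the OreR loci. No locus (0) was gained in zld- and lost in OreR, or the reverse. With a looser measure, 702 gained loci (76.1%) had peaks in more OreR libraries at 2.5-3 h than at 1.5-2 h, and 1577 lost loci (91.1%) had peaks in fewer. In the other direction, 1944 of the 2166 loci gained in OreR (89.8%) had peaks in more zld- libraries at 2.5-3 h than at 1.5-2 h and 60 in fewer, while 3698 of the 4595 loci lost in OreR (80.5%) had peaks in fewer and 186 in more. The share of all loci with peaks in more or in fewer libraries was not computed for either genotype. In OreR a peak was held at 62.5% of all loci at 2.5-3 h and at 71.1% at 1.5-2 h on average, so these shares have no background beside them. The loci come from the zld- lists alone, so regions open only in OreR are not counted here.

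A small group of gained loci had peaks in wild type in both windows compared. All 3 OreR libraries at 2.5-3 h held a peak at 64.2% of the gained and 49.3% of all loci. For OreR at 1.5-2 h these shares were 10.1% and 58.4%. The share of all loci with both is not given here. At 78 of the 923 gained loci every OreR library at 2.5-3 h and at 1.5-2 h held a peak, while by the rule no zld- library at 1.5-2 h did. Among those named here the zld- libraries at 2-2.5 h held the peak in 3 of 3 cases near CG15198, CG1304 and nompC, in 2 near Pde9 and Adk1 and in 1 near CG13482. Besides CG15198 and Pde9, those of highest rank were nearest to CG1304, the mechanosensory channel gene nompC, the adenosine kinase gene Adk1 and CG13482. At nompC (2L:5362505-5363383) fold enrichment was 2.86, 2.70 and 2.43 at 2.5-3 h. These loci overlapped 64 of the 20935 regions that the authors tested for a difference between zld- and OreR in each window. Of the 64 regions 34 (53.1%) were, in the authors' deposited table, lower in zld- than in OreR at 2.5-3 h at an adjusted p under 0.05, against 17.1% of all regions, with a median log2 fold change of -0.35. At 1.5-2 h the number that were lower in the authors' deposited table was 20 (31.3%), against 7.49% of all regions, with a median of -0.15. These loci, and those that follow with a peak in all or in no OreR libraries of these windows, were chosen by peaks of the same libraries that this table compares. These shares and values therefore describe the choice and are no independent measure. The nompC region had -0.34 at 2.5-3 h (adjusted p = 0.0266) and -0.08 at 1.5-2 h in the authors' deposited table. At 67 other gained loci no OreR library of either window held a peak; the highest ranks were near CG34234, Pp1-13C, jing, dysc, CG32299 and RSG7. These 67 loci overlapped 13 of the authors' regions. Of the 13, 6 (46.2%) were higher in zld- than in OreR at 2.5-3 h in the authors' deposited table. The lower ones numbered 2 (15.4%), and among all regions 14% were higher and 17.1% lower. In the authors' deposited table the region at RSG7 (X:16837275-16837602) was higher, with a log2 fold change of 0.74 at 2.5-3 h (adjusted p = 4.65e-08). The region at the locus near scw (2L:19703769-19704064) was lower there, with -1.35 (adjusted p = 8.08e-14). Of the lost loci, 3.12% had a peak in all 3 OreR libraries at 2.5-3 h and 70.8% in all 3 at 1.5-2 h. Among the 1732 lost loci, 44 had a peak in every OreR library of both windows and 57 in none. The 44 loci overlapped 25 of the authors' regions, of which 10 (40%) were lower in zld- at 2.5-3 h and 1 (4%) higher. The lowest of those named was near CG14111 (3L:13370335-13371313), with fold enrichments of 1.92, 1.97 and 2.51 at 1.5-2 h. The authors' deposited table gave -0.82 there at 2.5-3 h (adjusted p = 2.61e-12), against 0.17 near Cpr50Ca (0.415) and -0.01 near SKIP (0.977).

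Gained and lost loci differed in position. Of the gained loci on the main chromosomes 24.9% lay within 500 bp of an end of a protein-coding gene and 63.8% had their midpoint inside a gene, against 25.5% and 78.8% of the lost loci. Over the shared loci these shares were 32.3% and 70.8%, and over all loci 23.3% and 67.9%. The X chromosome held 20.0% of the gained loci, 15.9% of the lost, 13.5% of the shared and 15.4% of all loci, and arm 3R held 19.8%, 28.1%, 21.3% and 22.8%. The share overlapping a region tested by the authors was 50.5% of the gained loci and 23.2% of the lost, against 48.4% of all loci. Regions with an enhancer name in the authors' table overlapped 46 gained (4.98%) and 48 lost loci (2.77%), against 5.54% of all loci. These regions are 2114 bp wide, so a locus that overlaps one need not overlap the enhancer itself. The same holds for every region name given below. The gene table gives no strand, so starts and ends of genes are not told apart. Without replicate 1 at 1.5-2 h, 7.04% of the gained and 2.87% of the lost loci overlapped a region with an enhancer name. The gained share then lay above that of all loci. Within 500 bp of a gene end lay 29.5% of the gained and 22.7% of the lost loci, and 64.5% and 77.4% had their midpoint inside a gene. All these shares are descriptions of loci on the same chromosomes and carry no test.

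At the 23480 shared loci the fold enrichment was ranked within each list over these loci alone, and the ranks were turned into normal scores, the values a standard normal distribution has at those ranks. No locus passed an adjusted p of 0.05 in limma with Benjamini-Hochberg adjustment: 0 were higher (0%) and 0 lower (0%) at 2.5-3 h, and the lowest adjusted p was 0.0539. At an unadjusted limma p under 0.05 there were 6503 loci (27.7%), of which 3115 were higher and 3388 lower at 2.5-3 h. The ranks of the windows did not overlap at 3762 loci that were higher at 2.5-3 h (16%) and at 4092 that were lower (17.4%). Without replicate 1 at 1.5-2 h, the same fit on 23724 shared loci called 1769 higher (7.46%) and 1349 lower (5.69%), and leaving out any other of the 6 libraries left 0 calls in both directions. Replicate 1 was set apart for its likeness to the later libraries at shared loci, so the calls without it are no independent support. With all 6 libraries kept, limma called 1156 higher and 1689 lower with ranks of the −log10 p in place of fold enrichment, 897 and 955 with quantile-normalized log2 fold enrichment, and 597 and 791 with the authors' regions as loci, so the number of calls depended on the measure. The shared loci are described below by separation of the 3 later from the 3 earlier ranks, which is no test, and by the libraries of OreR.

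The shared loci with the largest separated changes lay in or near genes of unlike roles and were named after their values had been seen. At lin, which encodes the transcriptional regulator Lines (2R:8914461-8915877), the percentile of fold enrichment among the shared loci was 54.7, 62.5 and 49.8 at 2.5-3 h, against 12.9, 1.25 and 0.162 at 1.5-2 h, a difference in normal score of 2.25 ± 0.44 (SE; limma adjusted p = 0.0539). At Sec16, which organises the sites where cargo leaves the endoplasmic reticulum (X:12600981-12601876), the percentiles were 79.5, 79.9 and 79.2 at 2.5-3 h and 44.5, 3.43 and 3.61 at 1.5-2 h. At ND-MWFE, a subunit gene of mitochondrial complex I (2R:13157640-13159203), they were 67.6, 77.3 and 62.0 at 2.5-3 h and 35.4, 4.79 and 0.294 at 1.5-2 h. In each of these loci replicate 1 at 1.5-2 h was the closest of its window to the later libraries. The other loci of this kind were at or nearest to CG6659, ttm50, Larp7, swm, CG14339, ari-2, Ank2, Ack and Atxn7, among them Larp7, whose product binds the 7SK RNA, and Atxn7, a subunit gene of the SAGA complex. When replicate 1 at 1.5-2 h was left out, all 12 passed limma, with differences of 2.37 to 2.85 and adjusted p of 0.0149 to 0.0194. The 12 were chosen for their change in the same libraries, so these p-values describe the choice and are no independent support.

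In the other direction, s-cup (2R:12501930-12503678) had percentiles of 13.0, 19.3 and 0.865 at 2.5-3 h against 74.3, 85.3 and 86.9 at 1.5-2 h, a difference of -2.40 ± 0.39 (SE; limma adjusted p = 0.0539). At fkh, which encodes the gut and salivary gland factor Fork head (3R:28582390-28583616), they were 9.67, 2.79 and 5.04 at 2.5-3 h and 49.6, 58.3 and 71.8 at 1.5-2 h. At smg, which encodes Smaug, an RNA-binding protein that directs the decay of maternal mRNA (3L:8993961-8995378), they were 2.60, 0.179 and 1.52 at 2.5-3 h and 12.6, 27.5 and 57.5 at 1.5-2 h. Their distances from the nearest gene end were 471 bp for s-cup, 1414 bp for fkh and 2611 bp for smg. The others were nearest to sktl, a lipid kinase gene, CG12499, CG10395, sbb, CG44250, ham, RAF2, cdi and CG7611. All 12 passed limma without replicate 1 at 1.5-2 h, with differences of -2.91 to -1.93 and adjusted p of 0.0164 to 0.0329. These p-values too come from libraries by which the 12 were chosen and are no independent support. With the authors' 2114 bp regions as loci, the differences at sbb and RAF2 were positive, 0.38 and 0.64.

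**Figure D3:**
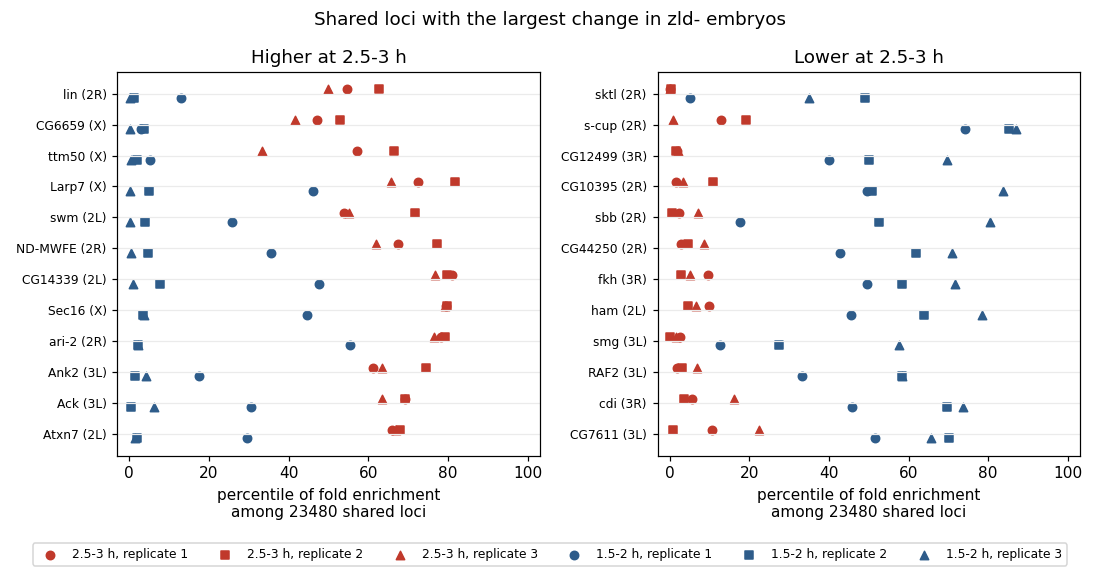
Percentile of fold enrichment among the 23480 shared loci in each zld- library, for the 12 loci with the largest separated change in each direction (chromosome in brackets); red marks are libraries at 2.5-3 h, blue marks those at 1.5-2 h, and shape gives the replicate. In the left panel replicate 1 at 1.5-2 h (blue circles) mostly lies between the later libraries and the other earlier ones, as at Sec16 with 44.5 against 3.43 and 3.61.

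Loci that ranked higher at 2.5-3 h were more often at gene ends. On the main chromosomes 1726 of the separated higher loci (48.5%) lay within 500 bp of an end of a protein-coding gene, against 1107 of the separated lower loci (29.2%) and 32.3% of all shared loci. The median distance was 675 bp for the higher, 2225 bp for the lower and 2882 bp for all shared loci. Regions with an enhancer name overlapped 10.6% of the higher, 4.91% of the lower and 7.61% of all shared loci. The widths were alike, with medians of 1040.5 bp (higher), 1098 bp (lower) and 1000 bp (all shared). Lower loci had their midpoint inside a gene in 79.3% of cases, against 71.4% of the higher loci. Without replicate 1 at 1.5-2 h the shares within 500 bp were 45.5% of the 5640 separated higher loci (23.8% of the shared loci) and 28.6% of the 6134 separated lower ones (25.9%), and 60.3% and 32.6% of the loci that limma called higher and lower.

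The OreR libraries, which share no sample with the zld- libraries, showed the same division. Over 19290 loci with a peak in all 12 libraries of both genotypes and windows, limma called 3536 loci higher (18.3%) and 3637 lower (18.9%) at 2.5-3 h in OreR alone at an adjusted p of 0.05. Of these, 55.0% of the higher and 25.9% of the lower loci lay within 500 bp of a gene end, with median distances of 32.5 and 3400 bp. Of the separated higher loci of zld-, 3380 were among the 19290, and 3063 of them (90.6%) had a positive change in OreR, 1846 (54.6%) a called increase and 30 a called decrease. Of the separated lower loci 2998 were among them, and 2791 (93.1%) had a negative change in OreR, 1809 (60.3%) a called decrease and 13 a called increase. Over all 19290 loci the change in OreR was positive at 48.8% and negative at 51.2%. Without replicate 1 at 1.5-2 h the same signs were found in 88.3% of the higher and 91.0% of the lower loci. The median change of the separated higher loci was 0.71 in zld- and 0.66 in OreR, and that of the lower loci was -0.65 in zld- and -0.75 in OreR; the zld- values describe loci chosen for their change.

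Across the 19290 loci the change in zld- and the change in OreR had a Pearson correlation of 0.76 and a Spearman correlation of 0.75. The points are loci of the same libraries and are not independent, so no p is given. The spread of the change was smaller in zld-, with an SD of 0.56 against 0.73 in OreR. With only 3 libraries per window, and replicate 1 at 1.5-2 h close to the later ones, the contribution of single libraries to this difference was not tested.

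**Figure D4:**
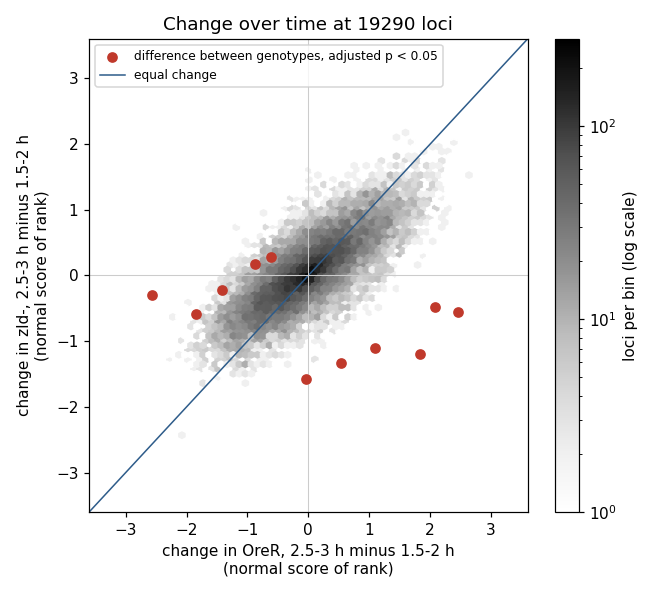
Change in the normal score of fold enrichment between 2.5-3 h and 1.5-2 h in zld- (y axis) and in OreR (x axis) at 19290 loci; grey shading gives the number of loci per bin on a log scale, the blue line is equal change, and red points are the 11 loci at which limma called a difference between the genotypes. Most loci lie along the line (Pearson's r 0.76), and 6 red points lie below the line and 5 above it.

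The difference in change itself was tested with limma in a fit of the 12 libraries with an interaction of genotype and window. It was called at 5 loci whose change was higher in zld- (0.0259% of loci) and at 6 whose change was lower (0.0311%), at adjusted p of 0.0441 to 0.0458; at an unadjusted p under 0.05 there were 1602 loci. The 11 loci were named after their values had been seen. At bnk, the bottleneck gene, whose product restrains the actin rings during cellularization (3R:31193062-31194252), the percentiles over the 19290 loci were 5.71, 3.43 and 2.86 in zld- at 2.5-3 h and 39.6, 46.7 and 59.2 at 1.5-2 h. In OreR they were 75.5, 83.1 and 80.0 at 2.5-3 h and 77.7, 81.9 and 82.7 at 1.5-2 h. The zld- libraries lay below OreR in both windows, and further below at 2.5-3 h, with a difference in change of -1.69 ± 0.28 (SE). The authors' deposited table gives log2 fold changes of zld- over OreR of -3.12 at 2.5-3 h (adjusted p = 4.56e-27) and -2.42 at 1.5-2 h at this region. At NimC4, which encodes a receptor of the Nimrod family for apoptotic cells (2L:14047523-14048691), the percentiles were 8.64, 14.99 and 12.6 in zld- at 2.5-3 h and 54.1, 66.4 and 62.9 at 1.5-2 h. In OreR the NimC4 locus stood at 66.5, 72.3 and 71.6 at 2.5-3 h and at 39.6, 50.3 and 58.5 at 1.5-2 h, so that the windows moved in opposite directions in the genotypes; the difference was -2.01 ± 0.28 (SE).

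At CG9667 (3R:8125363-8126367) the percentiles were 3.93, 2.26 and 0.171 in zld- at 2.5-3 h and 13.5, 22.3 and 23.5 at 1.5-2 h. In OreR they were 73.6, 62.8 and 60.3 at 2.5-3 h and 7.43, 2.55 and 17.9 at 1.5-2 h. The loci near CG17118 (2L:10729308-10731193), CG15283 (2L:14464109-14465159) and spd-2, a centrosome gene (3L:16594304-16595162), likewise ranked higher at 2.5-3 h than at 1.5-2 h in OreR and not in zld-. Their differences in change were -2.41, -3.20 and -2.66. The authors' deposited table compares normalized signal and not ranks within a list. In it zld- over OreR at 2.5-3 h was -0.09 at CG9667 (adjusted p = 0.676), 0.03 at CG17118 (0.882) and 0.06 at spd-2 (0.71). No difference was thus called in that window at these 3 loci where the ranks of zld- lay below those of OreR. At 1.5-2 h the values were 0.19 at CG9667 (adjusted p = 0.433), 0.17 at CG17118 (0.261) and 0.36 at spd-2 (0.0123). At spd-2 zld- was thus called higher in the earlier window, where its ranks also lay above those of OreR. At CG15283 the authors' deposited table has -0.83 at 2.5-3 h (adjusted p = 5.09e-09), and at NimC4 -1.83 (1.04e-28). The 5 loci of the opposite kind lay toward the centromeric ends of X and 3L or on a Y contig. On the X chromosome 3 lay nearest to Cyp6t1 (X:21532756-21533619), DIP1 (X:21711513-21714561) and CG40813 (X:21976710-21977120), while 1 lay near nAChRalpha4 on 3L (3L:23199003-23200637) and 1 on an unplaced Y contig. At the locus nearest to DIP1, which is 81365 bp away, the percentiles were 86.3, 81.4 and 85.5 in zld- at 2.5-3 h and 89.9, 90.6 and 91.9 at 1.5-2 h. In OreR they were 4.13, 22.6 and 2.32 at 2.5-3 h and 89.8, 73.5 and 90.0 at 1.5-2 h. The locus near nAChRalpha4 and the 3 on the X chromosome thus ranked lower at 2.5-3 h in OreR and had percentiles of 74.5 to 98.3 in the zld- libraries of both windows. The authors' deposited table gives zld- over OreR at the DIP1 locus as 0.84 at 2.5-3 h and 1.14 at 1.5-2 h (adjusted p = 1.07e-12), and at the nAChRalpha4 locus as 1.16 and 1.53 in the same order. In the authors' deposited values zld- was thus above OreR in both windows at these loci near DIP1 and nAChRalpha4, and not more so at 2.5-3 h, unlike the ranks. At the CG40813 locus the authors' deposited table gives 0.37 at 2.5-3 h (adjusted p = 0.00608) and -0.34 at 1.5-2 h (adjusted p = 0.029). Relative to OreR, zld- thus rose over time there, as in the ranks. The loci near Cyp6t1 and on the Y contig have no value in that table. The calls were few and unstable: leaving out replicate 1, 2 or 3 at 2.5-3 h left 0, 1 and 1 higher and 0, 0 and 0 lower, and leaving out replicate 1, 2 or 3 at 1.5-2 h left 12, 0 and 0 higher and 6, 0 and 0 lower.

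Genes of early embryonic programmes were followed by lists of symbols, counting loci within 10 kb of a gene; every count below is to be read against 1.36% gained, 2.56% lost, 16% separated higher and 17.4% separated lower among all loci or all shared loci. The limma fit called 0 shared loci in any list, so none of the list members named here passed a test in zld-, and all are given as values. The members named for shared loci were chosen after their values were seen.

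Near the 10 gap and terminal genes, which set up the first broad domains of the body axis, 3 of 125 loci were gained (2.4%) and 1 was lost (0.8%, in CG32797 near gt), and of 49 shared loci 11 were separated higher and 6 lower. The gained loci lay near tll, the terminal gene tailless (3R:30849391-30850154), at knrl (3L:20596429-20597023) and near kni (3L:20704481-20705150). The tll locus overlapped a region that the authors' table names tll_TM. It had fold enrichments of 1.79, 1.67 and 1.57 at 2.5-3 h and no peak at 1.5-2 h. Every OreR library of both windows held a peak there. The authors' deposited table gives zld- over OreR as -0.62 at 2.5-3 h (adjusted p = 0.00335) and -1.02 at 1.5-2 h. Near hkb, the terminal gene huckebein, a locus (3R:4348209-4348954) overlapped a region named for a ventral element. Its percentiles were 60.7, 51.3 and 63.5 at 2.5-3 h and 38.5, 18.1 and 27.7 at 1.5-2 h. The windows did not overlap there, and the difference was 0.81 ± 0.26 (SE; limma adjusted p = 0.0907).

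Near the 9 pair-rule genes, which divide the trunk into segments, 2 of 104 loci were gained (1.92%) and 1 was lost (0.962%, at CG14947 near prd), and of 44 shared loci 7 were separated higher (15.9%) and 3 lower (6.82%). Both gained loci lay near opa. At the locus overlapping a region named opa_opa3 (3R:4858005-4858496) fold enrichment was 1.56, 1.59 and 1.94 at 2.5-3 h. Near the other end of the gene (3R:4871657-4872027) it was 1.70, 1.77 and 2.13, with no peak at 1.5-2 h at either locus. The authors' deposited table gives the opa_opa3 region as lower in zld- than in OreR at 2.5-3 h, with a log2 fold change of -1.01 (adjusted p = 1.32e-05). A shared locus near opa, 2898 bp from its nearest end (3R:4848922-4849915), had percentiles of 76.6, 76.4 and 75.3 at 2.5-3 h and 61.6, 18.1 and 6.76 at 1.5-2 h. In OreR its change was 0.27 (limma adjusted p = 0.262). The difference in change between the genotypes was 1.12 ± 0.46 there (SE; limma adjusted p = 0.529) and was not called. Near odd (2L:3593824-3594529) the percentiles were 62.5, 70.6 and 67.5 at 2.5-3 h and 15.8, 28.1 and 31.4 at 1.5-2 h, with a difference of 1.13 ± 0.24 (SE; limma adjusted p = 0.054).

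The 4 genes of pioneer and early factors (zld, Trl, Clamp and opa) had 3 gained loci of 63 (4.76%) and none lost (0), and of 28 shared loci 2 were separated higher (7.14%) and 8 lower (28.6%). Besides the opa loci, a peak in CG12702 within 10 kb of zld itself (X:19764655-19765031) had fold enrichments of 2.09, 2.69 and 1.75 at 2.5-3 h and none at 1.5-2 h. All 3 OreR libraries at 2.5-3 h and none at 2-2.5 h or 1.5-2 h held this peak. Near Trl, a locus in Mgat4a (3L:14763812-14765707) had percentiles of 4.57, 7.13 and 9.73 at 2.5-3 h and 22.8, 50.9 and 45.4 at 1.5-2 h. In OreR this locus was called lower at 2.5-3 h, with a change of -1.71 (limma adjusted p = 0.00314).

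Segment polarity genes, which act within each segment, had 2 gained loci of 123 (1.63%) and 4 lost (3.25%). The gained loci lay within inv (2R:11477608-11478021; 2.36, 2.39 and 1.97 at 2.5-3 h) and at CG3808 near nkd. The lost loci included hh (3R:23133027-23133425; 1.57, 2.03 and 2.00 at 1.5-2 h), ptc (2R:8663050-8664000; 1.56, 1.76 and 1.79) and gsb (2R:25060501-25060806; 1.63, 1.62 and 1.65), with the last in CenB1A near hh. The ptc locus had a peak in every OreR library of both windows, and the hh locus in 1 OreR library at 2.5-3 h and 3 at 1.5-2 h. At gsb itself (2R:25061499-25062622) a shared locus had percentiles of 85.4, 88.4 and 75.6 at 2.5-3 h and 68.6, 48.9 and 8.90 at 1.5-2 h, and in OreR it was called higher (change 1.15, limma adjusted p = 0.0219).

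Near the 8 Hox genes, which give segments their identity, 4 of 242 loci were gained (1.65%) and 5 lost (2.07%), and of 104 shared loci 17 were separated higher (16.3%) and 9 lower (8.65%). The lost loci lay within pb (a pair of loci), Ubx, Abd-B and Scr, and the gained ones near pb, within Antp, near Scr and at CG14907 near Ubx. At Ubx the lost locus (3R:16732625-16733497) overlapped a region named for the basal promoter, with fold enrichments of 1.82, 2.25 and 2.63 at 1.5-2 h. All 3 OreR libraries at 1.5-2 h and none at 2.5-3 h held a peak. In Antp a shared locus (3R:6914198-6914927) had percentiles of 57.7, 60.0 and 56.7 at 2.5-3 h and 6.13, 3.79 and 34.5 at 1.5-2 h. In OreR it was called higher at 2.5-3 h (change 1.81, limma adjusted p = 0.00241).

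Among genes of the dorsoventral axis, the 8 mesoderm genes had no gained locus of 156 (0%) and 5 lost (3.21%), and of 59 shared loci 11 were separated higher (18.6%) and 17 lower (28.8%). The lost loci lay in htl, near sna, at twi and in mod(mdg4) near tin (a pair of loci). At htl, a receptor gene for fibroblast growth factor, a peak within the gene (3R:18045748-18046735; 1.48, 1.82 and 1.75 at 1.5-2 h) was lost. Another locus, 153 bp from its end (3R:18053137-18053530), had percentiles of 69.9, 62.3 and 61.9 at 2.5-3 h and 37.1, 34.8 and 6.16 at 1.5-2 h. At the locus overlapping the region of the tin enhancer tinB-180 (3R:21379917-21380900) the percentiles were 7.02, 15.6 and 10.1 at 2.5-3 h and 21.1, 36.9 and 47.5 at 1.5-2 h. The 11 neuroectoderm genes had 2 gained loci of 185 (1.08%), near the ligand gene ths and near Dr, and 5 lost (2.70%), which lay near sim, in vnd, at CG13192 near ths, and at CG12310 and Rpn12R near ind. Of 68 shared loci 16 were separated higher (23.5%) and 7 lower (10.3%). A locus in ths (2R:11794054-11794982) overlapped a region named for an early embryonic enhancer. Its percentiles were 68.9, 71.3 and 75.5 at 2.5-3 h and 68.1, 14.5 and 15.9 at 1.5-2 h. Its change in OreR was -0.04 (limma adjusted p = 0.826), and the difference between the genotypes was not called there.

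Near the 12 genes of the dorsal ectoderm and amnioserosa 3 of 195 loci were gained (1.54%), near scw, at CG4297 near ush and near Doc1, and 7 were lost (3.59%). The 4 of these with the highest ranks lay in Doc2, in ush (a pair of loci) and in nAChRbeta3 near ush. In ush, which encodes a cofactor of GATA factors, a locus (2L:510340-511084) overlapped a region named for an enhancer fragment. Its percentiles were 68.1, 76.8 and 63.8 at 2.5-3 h and 50.2, 1.44 and 5.74 at 1.5-2 h. In OreR it was called higher as well (change 1.73, limma adjusted p = 0.0082). The 10 proneural and neuroblast genes had 1 gained locus of 150 (0.667%) and 4 lost (2.67%). The gained locus lay near D, the Sox gene Dichaete (3L:14185097-14185563, with 3.65, 3.05 and 2.38 at 2.5-3 h), and overlapped a region with an enhancer name. The lost loci lay in Cyp4g1 near ase, in pros (a pair of loci) and in nan near D. Near wor, a Snail family gene, the locus 2L:15427759-15428320 had percentiles of 47.0, 51.6 and 43.6 at 2.5-3 h and 18.8, 0.801 and 9.40 at 1.5-2 h. The locus overlapping the region named wor_CRM3 (2L:15423806-15425366) had 17.9, 17.4 and 13.5 at 2.5-3 h and 44.0, 70.7 and 33.5 at 1.5-2 h.

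Gut and endoderm genes had 1 gained locus of 84 (1.19%), nearest to Pomp, by cad, and 3 lost (3.57%), in vari and dia by cad and in CG43707 by bowl, and of 30 shared loci 9 were separated higher (30%) and 7 lower (23.3%). At byn, the hindgut gene brachyenteron (3L:11932808-11933297), percentiles were 43.5, 44.8 and 36.5 at 2.5-3 h and 6.32, 3.20 and 3.52 at 1.5-2 h, with a difference of 1.52 ± 0.29 (SE; limma adjusted p = 0.0539). Its change in OreR was 1.36 (limma adjusted p = 0.00683). Near cad, caudal, a locus (2L:20768561-20769287) overlapped a region named for a promoter fragment of the gene. Its percentiles were 55.2, 47.8 and 56.9 at 2.5-3 h and 13.3, 0.877 and 10.3 at 1.5-2 h. The change in OreR at this locus was 0.10 (limma adjusted p = 0.545). The difference between the genotypes was 1.53 ± 0.40 (SE; limma adjusted p = 0.312) and was not called. At srp, the GATA factor gene serpent (3R:16002191-16003524), they were 12.1, 1.02 and 19.4 at 2.5-3 h and 50.7, 45.8 and 71.8 at 1.5-2 h.

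The gastrulation and mitosis genes had 1 gained locus of 78 (1.28%), near trbl (3L:20395489-20395840; 1.52, 1.56 and 1.62 at 2.5-3 h), and 4 lost (5.13%), in fog, near stg, in T48 and near mthl1, the present symbol of mist. At stg, which encodes the mitotic phosphatase String (3R:29255002-29255884), percentiles were 86.5, 86.1 and 85.2 at 2.5-3 h and 71.4, 29.5 and 44.2 at 1.5-2 h. The cellularization genes had no gained locus of 46 (0%) and 3 lost (6.52%), in Or22a and Or22b near halo and in CG1544 near bnk. At halo (2L:1517670-1518410) percentiles were 76.9, 74.6 and 66.8 at 2.5-3 h and 42.2, 64.8 and 43.4 at 1.5-2 h. The authors' deposited table puts zld- below OreR there, at -2.92 at 2.5-3 h (adjusted p = 8.69e-23) and -2.24 at 1.5-2 h. Epidermis and tracheal genes had 1 gained locus of 109 (0.917%), near vvl, and 3 lost (2.75%), near vvl and in AANATL4 and CG10474 near rib. Ecdysone and temporal genes had 2 gained loci of 260 (0.769%), both in EcR, and 7 lost (2.69%), of which the 4 with the highest ranks lay in br, in Eip75B (a pair of loci) and in ftz-f1.

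Ribosomal protein genes, which every cell expresses, had 9 gained loci of 952 (0.945%) and 45 lost (4.73%) within 10 kb. Of 340 shared loci near them 68 were separated higher (20%) and 54 lower (15.9%), and the median change in normal score was 0.22, against -0.00453 over all shared loci. Over the 282 of these loci with a peak in all 12 libraries, the median change was 0.31 in zld- and 0.33 in OreR, against 0.03 and -0.02 over all such loci. In OreR limma called 96 of them higher and 32 lower.

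Lists of genes of later or other tissues served as a check on what a peak near a gene can show. Near 5 muscle genes 3 of 107 loci were gained (2.80%), a pair in sls, which encodes the fly titin (3L:2089679-2090336 and 3L:2107430-2107773), and 1 near Act57B, and 2 were lost (1.87%), both in Mhc. Near 5 neuron genes no locus of 105 was gained (0%) and 5 were lost (4.76%), among them a pair in or near brp, a locus in svr near elav and a locus in daw near Syt1. Near 5 germ line genes no locus of 63 was gained (0%) and 1 was lost (1.59%), near nanos. Near 5 haemocyte and fat body genes 3 of 72 were gained (4.17%), near gcm, in Pxn and in dos near it, and 4 lost (5.56%), in gcm, CG16984 near Pxn, and yps and Ir68b near Lsp2. Gained and lost loci thus also occurred near genes that mark later or other tissues, and loci within 10 kb of a gene need not belong to it.

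Which list members passed limma changed when replicate 1 at 1.5-2 h was left out. In that fit limma called 13 of 65 shared loci near genes of the dorsal ectoderm and amnioserosa higher (20%) and 3 lower (4.62%), against 7.46% and 5.69% of all shared loci. Among the higher loci was the ush locus 2L:510340-511084, with a difference of 2.39 ± 0.32 (SE, limma adjusted p = 0.0152). Near mesoderm genes 9 of 59 were higher (15.3%) and 5 lower (8.47%), and the htl locus was among the higher ones (1.34 ± 0.35; limma adjusted p = 0.0411). Near ribosomal protein genes 46 of 344 were higher (13.4%) and 19 lower (5.52%), and 35 of the 46 were also called higher in OreR. Near gap and terminal genes 3 of 49 were higher and 3 lower. Near pair-rule genes the counts were 4 of 45 and 1, near segment polarity genes 2 of 45 and 4, and near Hox genes 8 of 106 and 3. Near neuroectoderm genes 4 of 69 were higher and 2 lower, near proneural and neuroblast genes 4 of 41 and 1, near gut and endoderm genes 4 of 30 and 4, and near pioneer and early factors 2 of 29 and 5. In that fit the opa locus had a difference of 1.91 ± 0.27 (limma adjusted p = 0.0166), byn of 1.61 ± 0.32 (0.0216), stg of 1.42 ± 0.20 (0.0165), and bnk of -1.66 ± 0.32 (0.0215). The single loci given here were named after their values in these libraries had been seen. Replicate 1 was set apart for its likeness to the later libraries at the shared loci. The calls and p-values of this fit therefore describe these choices and are no independent support. The lists of later tissues also held called loci, with 6 of 29 higher (20.7%) and 1 lower near germ line genes and 4 of 21 higher (19.0%) and 3 lower near haemocyte and fat body genes.

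The counts of gained and lost loci near list genes also depended on that library. Without it 3.77% of all loci were gained and 3.85% lost, and near ribosomal protein genes 43 of 952 were gained (4.52%) and 71 lost (7.46%), so their gained share lay above that of all loci, and not below it as with all 6 libraries. Near epidermis and tracheal genes the gained loci numbered 10 of 109 (9.17%), near proneural and neuroblast genes 8 of 150 (5.33%), near neuron genes 6 of 105 (5.71%), near gastrulation and mitosis genes 5 of 78 (6.41%) and near segment polarity genes 8 of 123 (6.50%). Pioneer and early factors had 5 gained of 63 (7.94%), gap and terminal genes 6 of 125 (4.8%), Hox genes 11 of 242 (4.55%), and neuroectoderm genes 7 of 185 (3.78%). The lowest shares were near mesoderm genes, with 1 of 156 (0.641%), and near genes of the dorsal ectoderm and amnioserosa, with 3 of 195 (1.54%). Lost loci in the 19 lists made up 1.59% (pioneer and early factors) to 10.9% (cellularization, 5 of 46 loci).

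**Figure D5:**
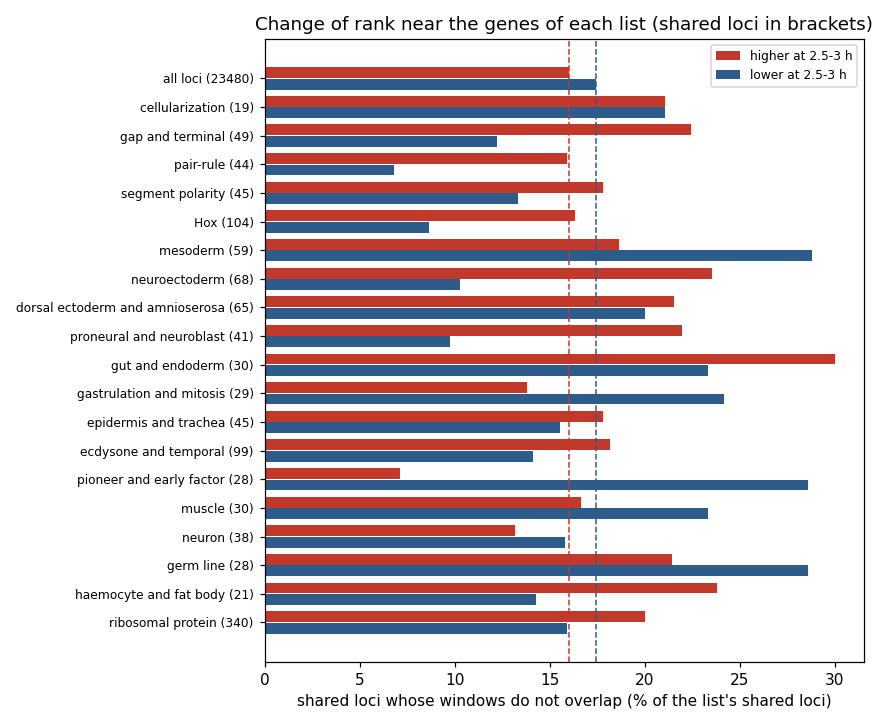
Share of the shared loci within 10 kb of each list's genes whose ranks at 2.5-3 h all lie above (red) or below (blue) those at 1.5-2 h in zld-, in percent of the list's shared loci (number in brackets); dashed lines are the shares over all 23480 shared loci, 16% and 17.4%. The shares run from 7.14% (pioneer and early factor) to 30% (gut and endoderm) for higher and from 6.82% (pair-rule) to 28.8% (mesoderm) for lower, on 19 to 340 loci.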

How the data were processed

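ATAC-seq of pooled staged embryos was analysed from the lists of peaks of 18 libraries, zld- and OreR at 3 windows with 3 replicates each, grouped by the titles of the samples. Per the labels' protocols, embryos were collected for 30 min at 25 °C and aged. Per the submitters' processing notes, Bowtie2 2.3.5.1, Picard 2.23.8, MACS2 2.2.7.1 and DESeq2 were used, with build dm6; their settings, and any shift for the Tn5 insertion site, were not given in the sources used. The authors called peaks on each library separately, and each deposited peak has a ratio of signal to local background (its fold enrichment), −log10 values of p and q, and a summit. The lists give no counts, so the depth is unknown and no counting interval could be had. In the authors' deposited table of zld- over OreR, 20935 regions of 2114 bp carry the authors' mean normalized signal, log2 fold change and its error, test score, p-value and adjusted p.

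Peaks were merged with bedtools 2.31.1; a locus took the highest fold enrichment of its peaks in a list. Shared loci were ranked within each list, turned into normal scores and fitted in limma 3.58.1 (R 4.3.3, moderated variance with a trend), without a replicate block, adjusting over all loci fitted. Tested on simulated data for this comparison over 23480 loci, the fit recovered 9% of 100 changes of size 1 and 58% of 100 changes of size 2, with 1.47% false calls. The simulated noise was independent between loci and libraries. It held no difference common to many loci of 1 library, unlike replicate 1 at 1.5-2 h. These shares therefore need not hold for the measured libraries. Library summaries were compared by exact permutation. Same-numbered libraries of the 2 windows had deviations from their window means that correlated at 0.09, -0.03 and 0.25. For 2 of 3 numbers this was the best match, so these values do not settle whether the numbers pair the samples.

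Loci were named by the protein-coding gene with the closest end in a RefSeq table of Release 6 of the genome, which gives no strand; all 128 genes of the lists and 92 ribosomal protein genes were found, 3 through synonyms. Named loci were the 12 gained and 12 lost with the highest value of the lowest percentile, within 10 kb of a gene, and gained or lost loci near list genes. Since limma called no shared locus, the separated loci, those that differ between genotypes and those open or closed throughout in OreR were added after the values were seen. The members, lists and rules were chosen with earlier results of these data known. Alternatives were stricter, equal-length, summit and region-based loci, other rank measures and filters, a replicate block, and leaving out libraries. Sequences are not shown here.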

Additional observations from a re-analysis of the deposited data

Results flagged for a closer look

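The change between 2.5-3 h and 1.5-2 h differed between zld- and OreR, by the interaction term in limma, at 11 of 19290 loci, 5 with a higher and 6 with a lower change in zld-. In differences of normal score the lower ones were -2.41 at CG17118, -2.01 at NimC4, -3.20 near CG15283, -2.66 at spd-2, -3.21 at CG9667 and -1.69 at bnk. The higher ones were 1.24 near nAChRalpha4, 1.18 near Cyp6t1, 2.24 near DIP1, 1.06 near CG40813 and 0.90 on an unplaced Y contig. Their adjusted p lay between 0.0441 and 0.0458, and over the fits that left out 1 zld- library those of the 10 loci on main chromosomes lay between 0.0341 and 0.195. No OreR library was left out.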

How the results depend on the processing

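Gained loci numbered 923 as reported, 1604 with lists cut to equal length, 1458 with 200 bp windows on the summits, 132 with the authors' regions as loci, and 984 to 2730 without 1 library; lost loci numbered 1732 as reported, 1460 with equal lengths, 2222 on summits, 100 with the authors' regions and 1947 to 3794 without 1 library. Gained exceeded lost loci with equal lengths, with the authors' regions and without replicate 3 at 2.5-3 h (2730 gained and 2258 lost). Leaving out replicate 3 of both windows, chosen after seeing the data, gave 2848 gained and 4587 lost loci and 7 higher and 16 lower shared loci. Shared loci called higher and lower, 0 and 0 as reported, were 597 and 791 with the authors' regions, 1156 and 1689 with ranks of the −log10 p, and 897 and 955 with quantile-normalized log2 fold enrichment; without 1 library they were 0 to 1769 and 0 to 1349. With a replicate block, which rests on a shared number only, they were 331 and 503, and 2 of 3 pairs correlated best with their own number. The differences from OreR, 5 higher and 6 lower, became 0 and 0 with the replicate block; lower ones became 12 with quantile normalization and 1 over the upper 75% of loci, and without 1 library there were 0 to 12 higher and 0 to 6 lower. The difference in peaks per library was 369 with a −log10 q of at least 5, and -8279 to 919 without 1 library. At 2 kb around each gene the median change of a list turned to 0.31 (cellularization), -0.0543 (gap and terminal), -0.0883 (neuron) and 0.11 (germ line). With the authors' regions the change turned to 0.38 at sbb, 0.64 at RAF2, -0.26 near kni, -0.57 near wg, -1.16 in EcR, 0.72 at CG5835 and 0.68 at Lsp2. For single named loci, the difference in number of lists was kept within its spread in 266 of 390 repeats and the rank change kept its direction in 1160 of 1167. The cause of these differences was not tested, except that fewer or shorter lists change the loci by construction. Depth is unknown.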
